A study of Arabidopsis thaliana with 12 samples.

Results

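The comparison described here set the middle of the subjective day against the middle of the subjective night in Arabidopsis thaliana seedlings kept in constant light. It used 8 of the 12 arrays of the series, chosen by their time of harvest alone. The 4 subjective midday arrays were harvested at 28, 32, 52 and 56 h in constant white light, which is circadian time (CT) 4 and CT8 of the first and the second free-running cycle. The 4 subjective midnight arrays were harvested at 40, 44, 64 and 68 h, which is CT16 and CT20 of the same cycles. The other 4 arrays, at CT0 (24 and 48 h, subjective dawn) and CT12 (36 and 60 h, subjective dusk), were not part of the test and are given as a description. All arrays held RNA of whole wild-type Col-0 seedlings that carried the reporter CCR2::LUCIFERASE. The seedlings had been grown for 7 d in 12-h light and 12-h dark on medium with 3% sucrose before the release into constant light. Transcript levels were read on Affymetrix ATH1 arrays as linear intensities, which the authors had scaled between arrays.

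The circadian clock of plants is a network of transcription factors that repress one another in turn through the day and the night, and it goes on running when light and temperature are held constant. Through it many genes of photosynthesis, growth, hormone signaling, pigment synthesis and metabolism are transcribed at a preferred time of day. Lights stayed on at every harvest compared here, so "midday" and "midnight" below name only the phase of the former light and dark cycle.

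There was 1 array for each harvest. The 4 arrays of a side therefore span CT4 and CT8, or CT16 and CT20, and 2 cycles, and the p values measure the spread among these arrays and not that of repeat cultures. The midnight arrays lie 12 h later in constant light than the midday arrays on average, so the side and a steady drift cannot be fully told apart. Array medians ran between 149.9 and 153.6, and correlations of log2 values between arrays between 0.979 and 0.992. The 3′ to 5′ intensity ratio of the GAPDH control, a sign of RNA integrity, was 1.82 ± 0.17 at midday and 1.78 ± 0.13 at midnight (SD, n = 4 each; two-sided exact permutation test, p = 0.8, smallest possible p 0.0286). Markers of root and shoot were both present, as whole seedlings would hold. The 3 root markers on the array (EXPA7, EXPA18 and PYK10) summed to between 10354 and 11548 at midday and between 9674 and 10579 at midnight, and none of them passed the test. The 4 shoot markers (RCA, LHCB4.1, LHCB4.2 and PSBW) summed to between 27647 and 32950 at midday and between 20373 and 25040 at midnight. All are genes of photosynthesis, and LHCB4.1, LHCB4.2 and PSBW passed the test below. RCA, the brightest, had a difference of -0.04 on the log2 scale (midday minus midnight) and did not pass (limma, adjusted p = 0.859). In whole seedlings a change in the share of a tissue and a change of transcript level within it cannot be told apart.

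Of 9161 genes tested with limma, 300 (3.27%) differed between the sides at a Benjamini-Hochberg adjusted p below 0.05. At midday 193 genes (2.11% of those tested) were higher, and 107 genes (1.17%) were higher at midnight. Differences are given on the log2 scale as midday minus midnight with their standard error (SE), so a positive value means a higher level at midday. The median difference was 0.46 among the genes higher at midday, a fold of 1.37, and -0.41 among the genes higher at midnight, a fold of 1.33, against -0.01 over all genes tested. A fold of at least 2 was reached by 15 genes of the midday set and by 2 of the midnight set. Calls were more frequent at high intensity, with 5.9% called of the 2290 brightest genes and 1.0% of the 2291 dimmest. In 192 of the 193 midday genes all midday arrays lay above all midnight arrays, and in 102 of the 107 midnight genes all midnight arrays lay above all midday arrays. Over all genes tested, 11.8% were separated in this way, 6.4% with midday above and 5.4% with midnight above. The separation is largely fixed by the test that chose the genes. Of nuclear protein-coding genes with a symbol in RefSeq's gene list, 14.1% had a usable probe set here, against 63.3% of those with a locus name only. Counts for gene lists below therefore describe the members tested and not whole families.

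**Figure D1:**
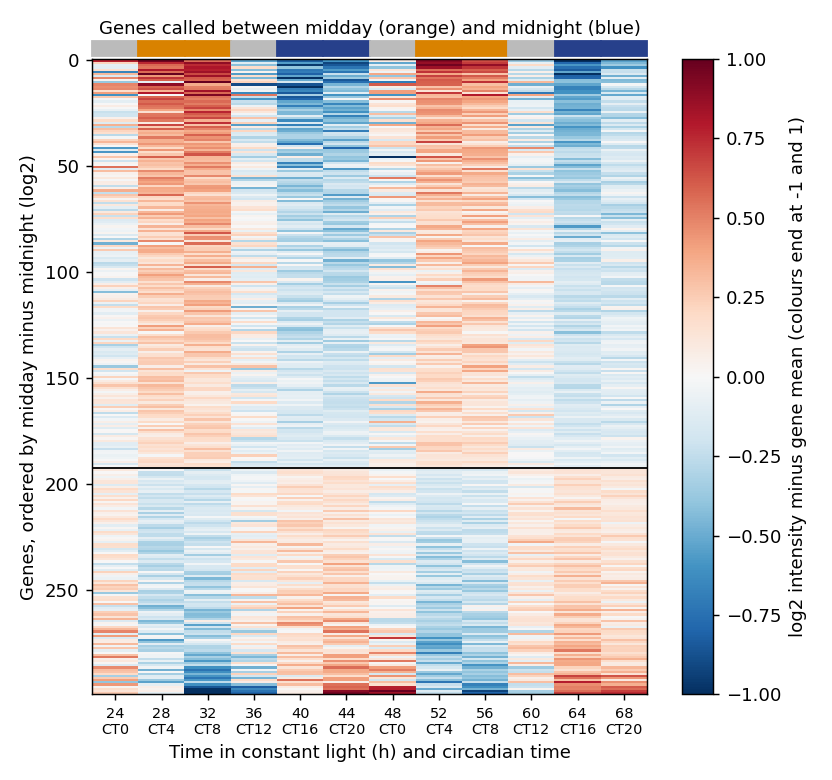
Log2 intensity of the 300 called genes, minus each gene's mean, at the 12 harvests from 24 to 68 h (horizontal axis, with circadian time). Genes run down the page from the largest positive to the largest negative midday minus midnight difference, the black line parts the 193 genes higher at midday from the 107 higher at midnight, and the strip on top marks midday arrays in orange, midnight arrays in blue and dawn and dusk arrays in grey.

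Of the 3 antenna genes tested, all of the LHCB4 family, 2 were higher at midday and 1 at midnight. Over all genes tested 2.11% were higher at midday and 1.17% at midnight. LHCB4 proteins (CP29) are minor antenna proteins that pass light energy to the core of photosystem II. LHCB4.2 had intensities of 6951, 6446, 6096 and 5997 at midday (28, 32, 52 and 56 h), against 1945, 3294, 2430 and 3933 at midnight (40, 44, 64 and 68 h). Every midday array lay above every midnight array, and the CT20 array of each cycle lay above the CT16 array. The difference was 1.19 ± 0.18 (SE), a fold of 2.27, with an adjusted p of 0.00407 (limma). LHCB4.1 read 8641, 8312, 7619 and 7820 at midday, against 5062, 5372, 5618 and 6264 at midnight. Its sides did not overlap either, at a difference of 0.54 ± 0.08 (limma, adjusted p = 0.00369). LHCB4.3 ran the other way, with 321.8, 225.8, 293.9 and 215.8 at midday and 427.6, 505.8, 476.1 and 441.5 at midnight. Its CT8 arrays were the lowest of both cycles, the sides did not overlap, and the difference was -0.83 ± 0.12 (limma, adjusted p = 0.00407). All 3 calls held when any one of the 8 arrays was left out.

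Of 4 tested genes of the photosystems, 3 rose at midday and none fell, with a median difference of 0.39 against -0.01 over all genes tested. The share of all genes that rose at midday was 2.11%. PSAN is a subunit on the lumen side of photosystem I, where plastocyanin docks. It read 3853, 3538, 3393 and 3126 at midday, against 1535, 1859, 1553 and 2037 at midnight. The lowest midday array stood well above the highest midnight array, and the level was doubled (difference 1.00 ± 0.10, limma, adjusted p = 0.000435). PSAE-1, a stromal subunit of photosystem I, read 9771, 9299, 9418 and 8937 at midday and 6324, 7116, 7134 and 7885 at midnight, a difference of 0.40 ± 0.08 (limma, adjusted p = 0.0158). PSBW, a small subunit of photosystem II, read 5725, 5895, 5208 and 5239 at midday and 3902, 4581, 4146 and 4274 at midnight, a difference of 0.38 ± 0.07 (limma, adjusted p = 0.0166). The sides of both genes were separate, but each call was lost without the array of 64 h (adjusted p = 0.0532 for PSAE-1 and 0.0574 for PSBW). PSBW also did not pass with scan day as a block (adjusted p = 0.0571) or with a linear term for time (0.0588). PSBY, another small subunit of photosystem II, had a difference of 0.33 and did not pass (limma, adjusted p = 0.103).

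Other chloroplast genes lay on both sides. They were picked out after their values were seen, unless a list held them. CURT1C (AT1G52220), a protein that bends thylakoid membranes, read 1486, 1519, 1257 and 1282 at midday, against 857.4, 942.5, 853.3 and 1102 at midnight (difference 0.56 ± 0.10, limma, adjusted p = 0.00995). TRXF2 is an f-type thioredoxin, which passes electrons from the light reactions to enzymes of carbon fixation. Its difference was 0.67 ± 0.13, and its adjusted p of 0.021 went to 0.0532, 0.054 and 0.0712 without the arrays of 28, 32 and 64 h. Of 9 tested genes of pigment synthesis 1 passed (3.27% called over all genes). It was HEME1, an early enzyme of the tetrapyrrole pathway, at 0.43 ± 0.09 (limma, adjusted p = 0.0251). Its call was kept in 2 of the 8 fits with an array left out, those without 44 or 52 h, and the highest adjusted p was 0.0716, without 40 h. AT1G74470, annotated as geranylgeranyl reductase, the enzyme that makes the phytol tail of chlorophyll, was higher at midday by 0.38 ± 0.08 (limma, adjusted p = 0.0278), and its call was lost without any of 5 arrays, those of 28, 32, 40, 52 and 64 h (adjusted p up to 0.0976). With scan day as a block the adjusted p was 0.0709 for TRXF2, 0.0728 for HEME1 and 0.0857 for AT1G74470, and with a linear term for time it was 0.0647, 0.0826 and 0.0733. PORB, a protochlorophyllide reductase, had the highest difference of the list, 0.57, but read 1343 and 1801 at CT4 and 3020 and 3012 at CT8, and did not pass (limma, adjusted p = 0.182). With scan day as a block PORB did pass, at a difference of 0.83 (adjusted p = 0.0308). The array of 28 h, its lowest midday value, was alone on its scan day, so that fit draws nothing on the sides from it.

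On the midnight side stood SBPASE, the sedoheptulose-bisphosphatase of the Calvin cycle. It read 2339, 1723, 1759 and 1744 at midday, against 2622, 3004, 2624 and 2498 at midnight. The sides did not overlap, although the array of 28 h lay apart from the other midday arrays. The difference was -0.52 ± 0.10 (limma, adjusted p = 0.021), and the call was lost without the arrays of 32, 52, 56 or 64 h, at adjusted p values between 0.0538 and 0.0622. The other 2 Calvin cycle genes tested, PRK and RCA, had differences of -0.11 and -0.04 and did not pass (limma, adjusted p = 0.423 and 0.859). Over all genes tested 3.27% were called. NdhN, a subunit of the chloroplast NADH dehydrogenase-like complex of cyclic electron flow, read 563.2, 520.8, 500.3 and 565.3 at midday and 873.4, 876.6, 903.4 and 787.4 at midnight. Its sides were far apart for their spread (difference -0.68 ± 0.07, limma, adjusted p = 0.000512). Cpn60beta2, a chloroplast chaperonin subunit, averaged 1087 at midday and 1623 at midnight (geometric means, n = 4 each; difference -0.58 ± 0.08, limma, adjusted p = 0.00369). Both calls held without any one array. Cpn60beta2 was picked out after its values were seen.

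**Figure D2:**
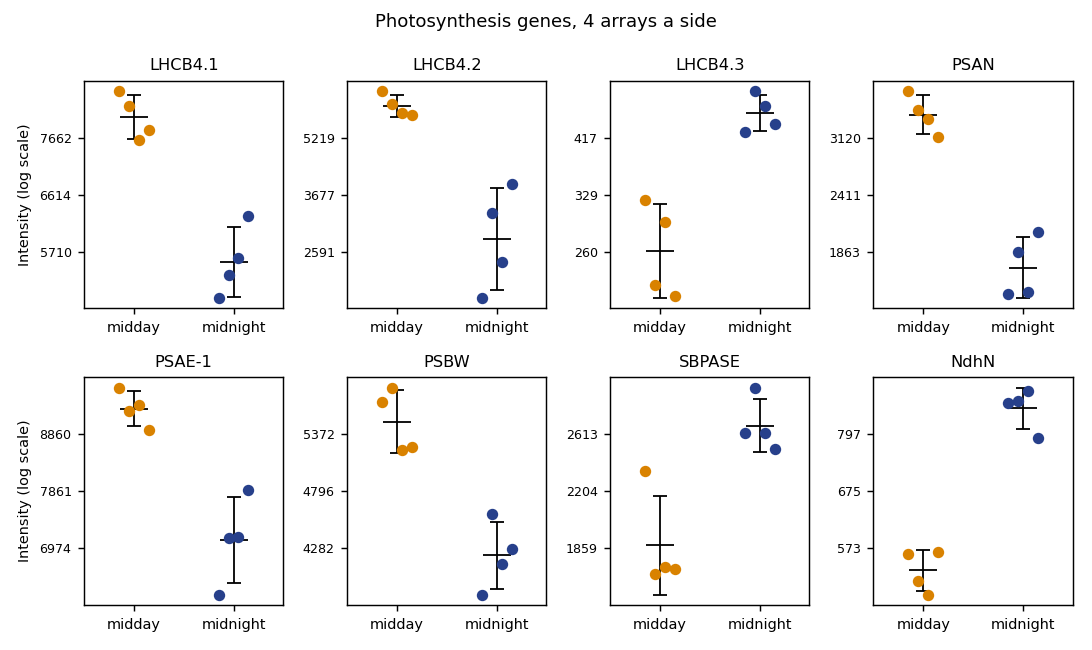
Intensity (log axis, its range set for each gene) of 8 photosynthesis genes on the 4 midday arrays (orange, left) and the 4 midnight arrays (blue, right) of each panel, in order of harvest within a side. The horizontal mark is the geometric mean and the bar 1 SD of the log2 values, and the sides do not overlap in any panel: LHCB4.1, LHCB4.2, PSAN, PSAE-1 and PSBW are higher at midday, LHCB4.3, SBPASE and NdhN at midnight.

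The largest differences of all belonged to the midday side. AT1G23390, for which the annotation gives no symbol, read 551.7, 662.5, 511 and 660.1 at midday, against 178.9, 149.9, 161.8 and 200.9 at midnight, a fold of 3.45 (difference 1.79 ± 0.11, limma, adjusted p = 2.39e-05). In both cycles CT8 exceeded CT4. AT5G48490, also without a symbol, read 999.2, 759.8, 968.9 and 804.1 at midday and 288, 336.9, 239.3 and 353.3 at midnight, with CT4 above CT8 in both cycles (difference 1.54 ± 0.13, limma, adjusted p = 0.000124). EXPA8 encodes an alpha-expansin, a protein that loosens the cell wall as cells enlarge. It read 969.2, 1066, 1052 and 937.1 at midday, against 391, 304.5, 333.4 and 422.3 at midnight. The 4 midday arrays were close together, the sides were far apart, and the fold was 2.79 (difference 1.48 ± 0.10, limma, adjusted p = 3.58e-05). CYP71B26, a cytochrome P450, read 391.6, 475.8, 436.4 and 418.6 at midday and 164.3, 160, 185 and 225.9 at midnight (difference 1.24 ± 0.11, limma, adjusted p = 0.000136). AILP1 read 1825, 2416, 2159 and 2048 at midday, against 937.7, 958.2, 765.6 and 959.6 at midnight (difference 1.22 ± 0.10, limma, adjusted p = 0.000124). All 5 of these genes kept their calls without any one array, with scan day as a block and with a linear term for time. DEWAX (AT5G61590), a transcription factor that represses wax synthesis, had a difference of 0.96 ± 0.17 (limma, adjusted p = 0.0114) but was uneven within midday, with 243.5 and 308.5 at CT4 and 468 and 424.5 at CT8. DEWAX was picked out after its values were seen.

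Of 30 cell wall growth genes tested, 2 rose at midday and 1 at midnight (3.27% called over all genes), with a median of 0.02. Beside EXPA8 these were CSLC04, a glucan synthase of xyloglucan (0.34 ± 0.07), and CSLA01, of the mannan synthase family (-0.70 ± 0.17). CSLC04 lost its call without the arrays of 28, 52, 64 or 68 h (adjusted p up to 0.0786). For CSLA01 the sides overlapped, the cycles gave -0.37 and -1.04, and the adjusted p of 0.0451 was 0.0593 to 0.131 without the arrays of 32, 44, 52, 56, 64 or 68 h. CSLC04 also did not pass with scan day as a block (adjusted p = 0.0709), and with a linear term for time neither gene did (0.0686 for CSLC04 and 0.127 for CSLA01). A pair of TRICHOME BIREFRINGENCE-LIKE genes, a family of wall polysaccharide acetyltransferases, passed in opposite directions. TBL26 was named for its large difference, and TBL25 was picked out after its values were seen. TBL25 was higher at midday (0.44 ± 0.06, limma, adjusted p = 0.00357), with 675.5, 613.6, 608.2 and 652.2 against 483, 454.5, 463.2 and 476.9 at midnight. TBL26 was higher at midnight (-0.73 ± 0.13, limma, adjusted p = 0.0121), with 153.4, 100.2, 140.8 and 125.9 at midday against 175.7, 219.6, 240.4 and 222.5 at midnight. Neither lost its call when an array was left out, but TBL26 came close to the threshold. Its highest adjusted p in these fits was 0.0491 (limma), and with a linear term for time it was 0.04996.

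Auxin is the hormone that drives elongation growth, and its pathway was a main subject of the study. Of 9 auxin genes tested, 2 rose at midday and none fell, and the median difference was 0.19. Over all genes tested 2.11% rose at midday, and the median was -0.01. WES1 (GH3.5) joins auxin to amino acids and so lowers the free hormone. It read 432.9, 473.3, 467.7 and 476.9 at midday, against 348.1, 318, 313.6 and 299.6 at midnight. No midday array fell near the midnight range, and the difference was 0.53 ± 0.07 (limma, adjusted p = 0.00181). IAA29, one of the Aux/IAA repressors of auxin-responsive transcription, read 110, 122.1, 104.6 and 123.5 at midday and 73.3, 76.2, 91.8 and 79.3 at midnight. It was among the dimmer genes tested, and its difference was 0.52 ± 0.09 (limma, adjusted p = 0.00767). Both kept their calls without any one array. HAT2, an auxin-induced homeodomain gene, had sides that did not overlap and a difference of 0.24 ± 0.06, and did not pass (limma, adjusted p = 0.0662).

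**Figure D3:**
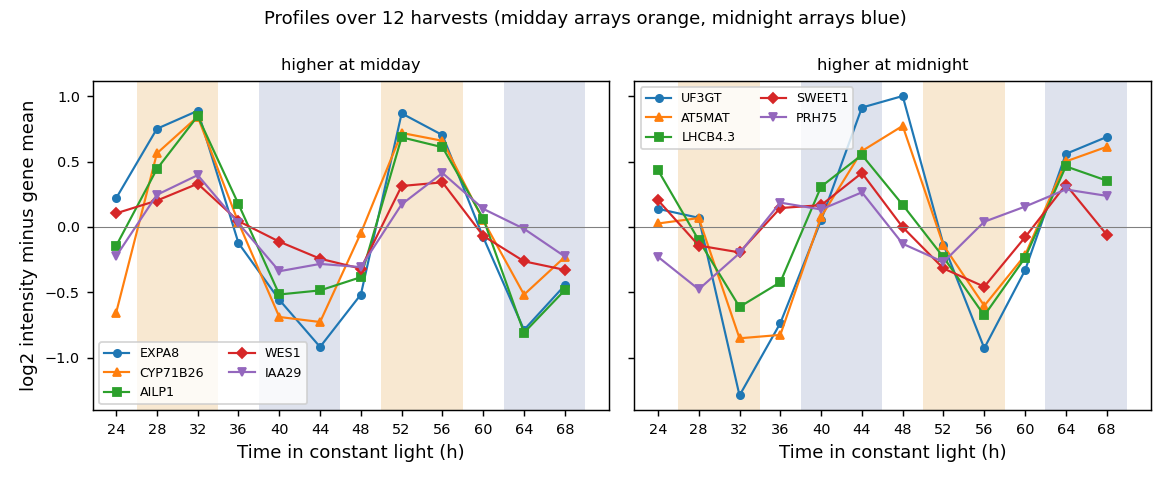
Log2 intensity minus each gene's mean at the 12 harvests (time in constant light, h) for 5 genes higher at midday (left) and 5 higher at midnight (right), with 1 point for each array. Orange bands mark the midday arrays and blue bands the midnight arrays. The plot shows EXPA8 and AILP1 with the widest swing on the left. UF3GT has the widest on the right, where its array of 28 h stands close to the mean.

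Of 11 autophagy genes tested 2 rose at midday and none fell, 10 had a positive difference, and the median was 0.20. Over all genes tested 2.11% rose at midday, 46.6% had a positive difference, and the median was -0.01. The autophagy median was 0.36 within the first scan day and 0.09 within the second. ATG8 proteins are the ubiquitin-like proteins that are linked to the membrane of the growing autophagosome. ATG8E read 397.2, 412.3, 455 and 473.5 at midday, against 312.5, 254.9, 295.3 and 369.3 at midnight (difference 0.51 ± 0.11, limma, adjusted p = 0.0251). ATG8F read 1808, 1908, 1856 and 1729 at midday and 1439, 1372, 1338 and 1602 at midnight (difference 0.35 ± 0.07, limma, adjusted p = 0.0248). In both genes the array of 68 h was the highest of midnight, yet below every midday array. Without the array of 64 h the adjusted p was 0.0852 for ATG8E and 0.091 for ATG8F. The call of ATG8E was also lost without 40, 52 or 56 h, and that of ATG8F without 28, 32, 40, 44 or 52 h, with scan day as a block (adjusted p = 0.0695) and with a linear term for time (0.0653). A further 3 midday genes were picked out after their values were seen. MSRB6, a methionine sulfoxide reductase that repairs oxidized proteins, had a difference of 0.60 ± 0.10 (limma, adjusted p = 0.00964). THI2.2, a thionin, a small antimicrobial peptide, read 400.2, 418.8, 294 and 285.5 at midday and 212.5, 189.4, 205.8 and 196.4 at midnight, so that its first-cycle difference of 1.03 stood against 0.53 in the second (pooled difference 0.78 ± 0.12, limma, adjusted p = 0.00561). OCT1, an organic cation and carnitine transporter, was higher at midday by 0.63 ± 0.11 (limma, adjusted p = 0.0104).

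The 2 genes with the largest midnight difference were AT4G14090 and UF3GT, and AT5MAT had a like profile. UF3GT, a glycosyltransferase, and AT5MAT, a malonyltransferase, both act on anthocyanins, the red and purple pigments that shade leaf tissue. UF3GT read 468.7, 182.6, 406.3 and 234.6 at midday, against 462.5, 841.3, 657.9 and 719.6 at midnight. The CT4 arrays were above the CT8 arrays in both cycles, and the array of 28 h was above that of 40 h, so the sides overlapped. The difference was -1.12 ± 0.27, a midnight to midday fold of 2.18 (limma, adjusted p = 0.0484). AT5MAT read 143.8, 76, 124.3 and 90.3 at midday and 144.7, 205.1, 194.2 and 209.8 at midnight, where the arrays of 28 and 40 h were nearly equal (difference -0.83 ± 0.18, limma, adjusted p = 0.0337). AT4G14090, for which the annotation gives no symbol, read 256.3, 110.2, 231.7 and 157.1 at midday and 288.7, 532.5, 440.4 and 460 at midnight (difference -1.23 ± 0.25, limma, adjusted p = 0.0216). In all 3 the level at dawn of the second cycle (48 h) was high, at 894.5 for UF3GT, 234.5 for AT5MAT and 493.8 for AT4G14090.

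These 3 calls were among the less stable. UF3GT lost its call without the arrays of 32, 44, 52, 56, 64 or 68 h (adjusted p 0.0525 to 0.121), AT5MAT without 32, 44, 56, 64 or 68 h (0.0644 to 0.0986) and AT4G14090 without 44, 56, 64 or 68 h (0.0546 to 0.0704). With a linear term for time none of them passed (adjusted p = 0.118, 0.0988 and 0.0725), and with scan day as a block all of them did (adjusted p = 0.0371, 0.027 and 0.0281). The block takes up the array of 28 h, which was scanned alone and held the highest midday value of all 3 genes. DFR, the dihydroflavonol reductase that leads into anthocyanin synthesis, read 1077, 284.9, 919.9 and 432.7 at midday and 815.1, 1308, 1249 and 1413 at midnight. Its CT4 arrays reached the midnight range, and its difference of -0.99 ± 0.36 did not pass (limma, adjusted p = 0.158). Of the 3 phenylpropanoid and flavonoid genes tested, UF3GT alone passed. It is counted as well among the 43 UDP-glycosyltransferases tested. Of these 2 rose at midday and 2 at midnight (3.27% called over all genes), with a median of -0.01. The midday members were UGT72E1, which glucosylates lignin precursors (0.56 ± 0.09, limma, adjusted p = 0.00683), and UGT88A1 (0.36 ± 0.08, adjusted p = 0.0292). The second midnight member was UGT71B1 (-0.49 ± 0.12, adjusted p = 0.0427). UGT88A1 kept its call in the fits without 32 or 68 h and UGT71B1 in those without 28 or 44 h, and both lost it without any other array, with the highest adjusted p without that of 64 h (0.0822 and 0.133). UGT71B1 also did not pass with scan day as a block (adjusted p = 0.066) or with a linear term for time (0.104).

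Of 13 sugar transport genes tested, 2 rose at midnight and none at midday, with a median of -0.03. The share of all genes that rose at midnight was 1.17%. SWEET proteins let sugars cross membranes down their gradient. SWEET1 read 181.4, 174.9, 160.6 and 145.8 at midday, against 224.7, 266.6, 250.6 and 192.2 at midnight (difference -0.49 ± 0.11, limma, adjusted p = 0.0289). SWEET4 read 224.9, 273.1, 258.4 and 216.4 at midday and 333.9, 324.7, 317 and 316.8 at midnight (difference -0.42 ± 0.08, limma, adjusted p = 0.0181). The sides were separate for both. The call of SWEET1 was lost without 40, 44, 52, 56 or 64 h (adjusted p 0.0614 to 0.098) and that of SWEET4 without 40 or 64 h (0.0524 and 0.0547). ATSPS4F, a sucrose phosphate synthase, read 407.9, 335.1, 353.9 and 303.1 at midday, against 521.1, 559.4, 490.9 and 504.1 at midnight. Its difference of -0.57 ± 0.09 (limma, adjusted p = 0.00576) held without any one array. The gene was picked out after its values were seen. None of 6 starch genes passed, and their median was -0.16.

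Of 10 genes of nitrogen and sulfur assimilation, 1 rose on each side (3.27% called over all genes). Both were transporters of the NRT1/PTR family. NPF3.1 (AT1G68570) read 524.8, 371.3, 471 and 417.5 at midday and 568.7, 760.8, 716.2 and 625.8 at midnight (difference -0.58 ± 0.12, limma, adjusted p = 0.021). Its sides did not overlap, and its call was lost without 56 h (adjusted p = 0.0605) or 64 h (0.0757). NPF6.2 (AT2G26690) was higher at midday by 0.31 ± 0.08 (limma, adjusted p = 0.0484) and kept its call only without the array of 44 h. The adjusted p without any other array lay between 0.0745 and 0.113. Among 12 beta-glucosidases BGLU46, which acts on lignin precursors, was higher at midday (0.38 ± 0.08, adjusted p = 0.021) and BGLU36 at midnight (-0.42 ± 0.07, adjusted p = 0.0091). BGLU46 lost its call without 32, 52 or 64 h (adjusted p up to 0.0717). With scan day as a block the adjusted p was 0.125 for NPF6.2 and 0.0596 for BGLU46, and with a linear term for time it was 0.126 for NPF6.2, 0.0616 for NPF3.1 and 0.0555 for BGLU46. Among 21 serine carboxypeptidase-like genes scpl35 alone passed, higher at midnight by 0.49 on the log2 scale (adjusted p = 0.0148), though not without the array of 64 h (0.0517). A single call among 21 genes is near the 3.27% called over all genes tested.

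A further 3 midnight genes, picked out after their values were seen, act in the making of ribosomes. Other tested genes of this kind were not counted, so nothing is read about them as a group. The ribosomal protein list had 1 tested gene, AT1G77750, with a difference of 0.04 that did not pass (limma, adjusted p = 0.781). PRH75, a nucleolar RNA helicase, read 958.4, 1161, 1108 and 1372 at midday, against 1464, 1604, 1628 and 1574 at midnight (difference -0.46 ± 0.10, limma, adjusted p = 0.0276). PESCADILLO (AT5G14520), a ribosome assembly factor, read 410.3, 455, 450.2 and 462.6 at midday and 545.4, 529, 534.1 and 528.6 at midnight (difference -0.27 ± 0.06, limma, adjusted p = 0.0424). NRPA2, the second-largest subunit of RNA polymerase I, which transcribes ribosomal RNA genes, read 227.7, 235.8, 237.2 and 267.1 at midday and 292.9, 284.7, 311.5 and 289.3 at midnight (difference -0.29 ± 0.07, limma, adjusted p = 0.0482). The midnight arrays of each were close together and above all midday arrays. The calls lay near the threshold: that of AT5G14520 was lost without any one of the 8 arrays, that of NRPA2 without any but 56 h, and that of PRH75 without any but 40 or 56 h, with adjusted p values up to 0.118, 0.149 and 0.0911. With a linear term for time none of the 3 passed (adjusted p = 0.11, 0.13 and 0.0839), and with scan day as a block PRH75 alone did (0.0479). GIS, a zinc finger regulator of trichome formation, was higher at midnight with a steadier call (184.1, 193.2, 178.5 and 196.4 at midday against 253.2, 255.1, 332.6 and 270.4 at midnight, difference -0.56 ± 0.09, limma, adjusted p = 0.00683). GIS was also picked out after its values were seen.

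Several gene groups with known daily rhythms showed no call on this axis. GI, the 1 core clock gene that could be named and tested, read 324.3 and 447.4 at CT4, 702.4 and 612.9 at CT8, 432.8 and 421.8 at CT16 and 343.1 and 393.8 at CT20. Midday therefore held both its lowest and its highest values among the 8 arrays, and the difference of 0.34 ± 0.20 did not pass (limma, adjusted p = 0.384). Of 6 cold response genes none passed. COR15A, a cold-induced chloroplast protein that protects membranes, read 755.1 and 932.5 at CT4 and 2611 and 2554 at CT8, against 822.8 and 843.7 at CT16 and 566.6 and 411.7 at CT20. Its difference of 1.21 ± 0.39 was among the larger of all genes but did not pass (limma, adjusted p = 0.118), and the same split between CT4 and CT8 was seen in COR15B (difference 1.13, adjusted p = 0.221). Pooling CT4 with CT8 and CT16 with CT20 thus left such genes with a wide spread within a side. Of 35 gene lists, 30 had a tested member and 14 a called one. The lists held 202 tested genes, of which 16 were higher at midday and 10 at midnight (12.9% in either direction, against 3.27% of all genes tested). The lists were written with earlier results of these data known, so nothing is read from this share.

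The dawn and dusk arrays, which the test did not use, mostly lay between the sides. The mean of the 2 dawn arrays was between the midday and midnight means in 162 of the 193 midday genes (83.9%) and in 88 of the 107 midnight genes (82.2%), against 38.5% of all genes tested. For the dusk arrays it was 169 (87.6%) and 86 (80.4%), against 36.5% of all. Genes called for a wide gap between the sides have more room between them, so these shares are a description only. Dawn exceeded dusk in both cycles in 74 midday genes (38.3%) and 38 midnight genes (35.5%), against 24.8% of all genes tested, and dusk exceeded dawn in 63 (32.6%) and 33 (30.8%), near the 31.2% of all genes. In the midday set LHCB4.2 leaned to dawn, with 5863 and 5074 at CT0 and 3087 and 3389 at CT12. DEWAX leaned to dusk, with 354.7 and 321.7 at CT12 and 160.8 and 161.6 at CT0. In the midnight set SBPASE leaned to dawn (3094 and 2545 at CT0, 2081 and 2261 at CT12) and NdhN to dusk (818.5 and 633.2 at CT0, 837.9 and 883.9 at CT12). Within midday, CT8 exceeded CT4 in both cycles in 63 of the 193 genes (32.6%, against 30.4% of all genes tested) and CT4 exceeded CT8 in 58 (30.1%, against 26.2%), both near the share of all genes. Within midnight the split was less even. CT20 exceeded CT16 in both cycles in 65 midday genes (33.7%) and 24 midnight genes (22.4%), against 25.4% of all genes tested. CT16 exceeded CT20 in 30 midday genes (15.5%) and 38 midnight genes (35.5%), against 25.4% of all.

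Each cycle was also read on its own. All 300 genes had the same direction in both cycles, as did 5763 of all 9161. The choice of the 300 over both cycles favors this. The median difference of the midday genes was 0.51 in the first cycle and 0.42 in the second, and 134 of the 193 had the larger difference in the first. For the midnight genes the medians were -0.40 and -0.40, and 44 of the 107 had the larger difference in the first. Over all genes tested 4630 of 9161 had the larger difference in the first. The interaction of side and cycle passed for no gene (0 of 9161, 0.0%, limma, lowest adjusted p = 0.673). At an unadjusted p below 0.05 there were 582 genes, 6.35% of those tested. With 2 arrays a side and cycle, only large differences between cycles were detectable.

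**Figure D4:**
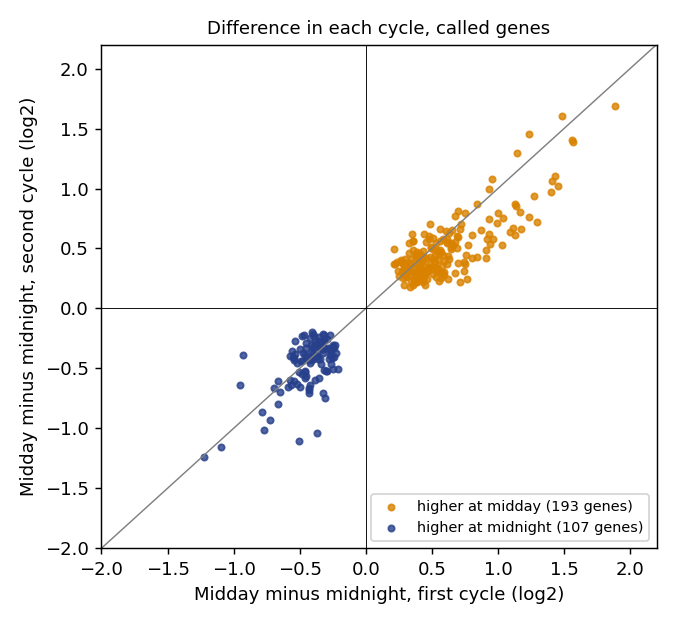
Midday minus midnight difference (log2) of each of the 300 called genes in the first cycle (horizontal axis, 28 and 32 h against 40 and 44 h) and in the second (vertical axis, 52 and 56 h against 64 and 68 h). Orange points are the 193 genes higher at midday, blue points the 107 genes higher at midnight, the grey line marks equal differences, and more midday genes (134) lie below the line than above it.

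The number of called genes depended on single arrays. Leaving out the array of 64 h gave 125 called genes, that of 52 h gave 178 and that of 40 h gave 199, against 300 with all 8, and 116 of the 300 (93 midday and 23 midnight genes) kept their call in all 8 such fits. A linear term for time in constant light left 173 genes called, 126 at midday and 47 at midnight, of which 156 belonged to the 300. The arrays were scanned on 3 days. That of 28 h was scanned alone, the first scan day also held 32 and 52 h (midday) with 40 and 44 h (midnight), and the second held 56 h (midday) with 64 and 68 h (midnight). With scan day as a block 245 genes were called (153 and 92), 194 of them shared with the 300. The block takes up the array of 28 h, so this fit in effect sets 32, 52 and 56 h against midnight. It is therefore not a check on batch alone. Within the first scan day 23 genes passed, 22 of them among the 300. The second scan day held 1 midday array, so only its differences are given. All 300 genes had the same direction on both of these scan days, as did 5755 of all 9161. The 300 were chosen on the arrays of both days, which favors this. The median difference of the midday genes was 0.48 within the first scan day and 0.43 within the second, and that of the midnight genes -0.41 and -0.39.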

How the data were processed

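Total RNA of whole Arabidopsis seedlings was hybridized to 12 Affymetrix ATH1 arrays, 1 for each harvest. The intensity values that the authors deposited are linear and were scaled between arrays beforehand, for 22810 probe sets. The submitters' notes name MAS5 without a version, the methods also name dChip, and the sources used here do not say which produced the values. The deposited array records hold other information, of which the scan day was used as a batch label. Arrays give no counts, so their number limits the precision.

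Genes were assigned to probe sets with GEO's annotation of the platform and RefSeq's gene list. Of the probe sets, 13513 had 1 symbol, 503 several and 8730 none, and 64 were controls. Those with 1 nuclear gene (13415, for 13264 genes) were used. Intensities were floored at 1 and taken to log2, the upper 69% by mean over 12 arrays were kept, and each gene was read from its brightest probe set, which left 9161 genes. A gene whose probe set was unnamed here was not analysed, which befell genes with a symbol more often than those with a locus name only. The 4 midday and 4 midnight arrays were compared in limma 3.58.1 (R 4.3.3, lmFit and eBayes, no covariates) with Benjamini-Hochberg adjustment over all genes and a threshold of 0.05. The script was tested on simulated data. The methods of the study fit rhythms and give no design for this comparison. Fold changes are ratios of geometric means. Quality ratios were compared by exact permutation tests (adjusted over 4 measures, lowest 0.886) with SciPy 1.17.1.

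Most genes were named by rule: the 12 with the largest difference in each direction whose sides did not overlap, and up to 4 called and 2 other members of each gene list. Other called genes fell outside these rules and were picked out after their values were seen, as marked in the text. Of the first kind the text describes those with a known role and the largest. The comparison, the gene lists and the tests were chosen with earlier results of these data known. Lists are described by counts and medians, with no set test. Alternatives changed the arrays, covariates, filter, probe sets, normalization, variance model and threshold. Promoter motifs were not analysed here.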

Additional observations from a re-analysis of the deposited data

Results flagged for a closer look

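In 11 cases among the named genes, 1 of the 4 arrays of a side stood apart from the other 3 by more than Dixon's critical value. In all, 194 groups of 4 were screened, and chance alone picks out about 1 in 20. Among genes with a call, the midnight value of AILP1 was 765.6 at 64 h, against 937.7 to 959.6 on the other midnight arrays, and the midnight value of UGT72E1 was 384.2 at 68 h, against 308.1 to 313.5. AT5G12050 read 155.3 at 56 h, against 176.1 to 179.2 on the other midday arrays. AT1G30540 was low on the last array of each side, with 247.4 at 56 h against 313 to 328.1 on the other midday arrays, and 395 at 68 h against 481.1 to 485.6 on the other midnight arrays. SBPASE read 2339 at 28 h, against 1723 to 1759 on the other midday arrays.

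Among genes without a call, BIM1 read 423.2 at 56 h against 378.2 to 385.1 on the other midday arrays, and scpl48 read 1056 at 32 h against 1182 to 1205. At midnight the array of 44 h was high for 3 genes. EXPB3 read 2268 there against 1695 to 1771 on the other midnight arrays, MYC4 read 341.4 against 278.6 to 287.6, and OLEO3, a seed oil body protein, read 157.7 against 95.7 to 99.7.

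STZ, a zinc finger gene of the touch and wounding list, had a midday minus midnight difference of -0.15 in the first cycle and 0.25 in the second, with the arrays fully separate in opposite directions. The interaction of side and cycle did not pass for it (limma, adjusted p = 0.674), so the cycles were not shown to differ.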

How the results depend on the processing

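Counts are given as all called genes with those higher at midday and at midnight in brackets, against 300 (193 and 107). With a linear term for time 173 genes (126 and 47) were called, within the first scan day 23 (21 and 2), and with all 12 arrays in a fit of 6 circadian times and cycle 537 (315 and 222). Without the intensity filter 128 of 13264 genes (103 and 25) passed, and with all probe sets, named or not, 809 of 15695 (504 and 305). The first cycle alone gave 27 genes (25 and 2) and the second alone 58 (33 and 25). At an adjusted p below 0.01 there were 95 (79 and 16), at an unadjusted p below 0.05 there were 1768 (905 and 863), and with a fold of at least 1.5 there were 73 (58 and 15). Leaving out 1 array at a time gave 125 to 240 genes (97 to 166 at midday and 28 to 86 at midnight), lowest without the array of 64 h. Day of sampling as a block gave 276, scan day as a block 245 and the upper 50% of genes 410 of 6654. Adding 32 to the intensities before taking log2 gave 353. Quantile normalization gave 324, median centring 310, and the trended and robust priors 367 and 302. The second scan day held 1 midday array, and no count is given for it. Without probe sets marked as cross-hybridizing, all 300 calls were kept among 313. The interaction of side and cycle passed for 0 genes with and without the filter (limma, 893 genes at an unadjusted p below 0.05 without it). Of 2594 values of 93 named genes under these settings, 2203 kept their direction and side of the threshold, 303 lost the call and 36 gained one; the cause was not tested. The other 52 changed sign, in 17 genes that were called neither at first nor under that setting. The labels give no replicate numbers, so the cycle was the only block by which harvests of like circadian time could be paired. One array a harvest and the share of unnamed probe sets limit these results.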

Other observations

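Some called genes were neighbors on a chromosome. Among the 300 there were 10 pairs of loci that follow each other among the protein-coding genes of the RefSeq gene table, and both members of each pair differed in the same direction. A run of 3 such loci, AT2G29290, AT2G29300 and AT2G29310, was higher at midday by 0.78, 0.49 and 0.45 on the log2 scale. ATG8E and its neighbor AT2G45180 were higher at midday by 0.51 and 0.86, and AT5G57340 and AT5G57345 by 0.85 and 0.76. On the midnight side the 1 such pair was AT3G24760 (-0.33) and CLE41 (-0.30), which encodes a peptide signal of the vascular tissue. Whether members of a pair share probe sequence was not tested. Neither the number of pairs nor their shared direction was set against that among other genes.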
